A study of Mus musculus with 8 samples.

Results

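Myod1, Myf5, Myog and Myf6 are the 4 myogenic regulatory factors, chosen here by symbol from the 42391 gene entries of the count matrix. They are basic helix-loop-helix transcription factors that pair with E proteins and bind E-box DNA in the regulatory regions of muscle genes. Myf5 and Myod1 are known for setting myoblast identity in dividing cells, Myog (myogenin) is turned on when myoblasts leave the cell cycle and is needed for terminal differentiation, and Myf6 (Mrf4) is known from differentiated fibres and from early embryonic muscle. Septin9 is a subunit of the septin cytoskeleton, and the comparisons ask how each factor, and the balance among them, differed after its depletion.

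The study holds 8 RNA-seq samples, which form 4 groups of 2 replicates. C2C12 cells, a line of mouse myoblasts that forms myotubes in low serum, were collected after 12 h of differentiation and 60 h after transfection with a non-targeting siRNA (control) or a Septin9 siRNA at 50 nM, raised to 100 nM during the first 5 h. Primary myoblasts (pMb), isolated from hindlimb muscle of 5-week-old mice and depleted of fibroblasts by adhesion to collagen, were collected while proliferating in growth medium, 48 h after transfection with the same kinds of siRNA. C2C12 is a single long-cultured line, and depletion by siRNA left part of the Septin9 mRNA in place. The replicate number stands for an independent experiment, so each Septin9-deficient sample was paired with the control sample of the same number.

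Libraries held between 20898611 and 27223414 counted reads. Septin9 itself had 39.3% of the control level in Septin9-deficient C2C12 cells and 43.2% in Septin9-deficient pMb. All 6 myoblast marker genes examined (Des, Cdh15, Pax7, Ncam1, Itga7 and Chrna1) had a mean of at least 1 CPM (read counts scaled to library size and, by TMM, over the 8 samples) in every group. Markers of other cells were low, with summed levels of 0.0736 to 4.77 CPM for 4 endothelial genes, 1.24 to 2.75 CPM for 4 immune genes and 0.886 to 2.41 CPM for 3 Schwann cell genes, and the leukocyte genes Ptprc and Adgre1 were at or below 0.0448 CPM in each library. The summed level of 5 fibroblast genes differed between the pMb experiments rather than between siRNAs. It was 8.21 and 7.79 CPM in control and Septin9-deficient replicate 1 and 60.0 and 66.4 CPM in replicate 2. Pdgfra had 1.03 and 31.7 CPM in control replicates 1 and 2, while Dpt and Lum stayed at or below 0.143 and 0.483 CPM in pMb. The sum was also high in C2C12 cells, at 44.2 to 78.1 CPM in control and 57.0 to 82.4 CPM in Septin9-deficient samples. Most of the sum in C2C12 cells was Ly6a, at 34.1 to 59.6 CPM in control and 44.1 to 62.7 CPM in Septin9-deficient samples. Dcn and Pdgfra were highest in pMb replicate 2. Dcn had 13.3 and 16.1 CPM there in control and Septin9-deficient cells, against at most 2.72 CPM in C2C12 cells. Pdgfra had 31.7 and 32.1 CPM there, against at most 17.1 CPM in C2C12 cells.

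The 4 genes are short, with 3 exons and 1 annotated transcript each, and none overlaps another RefSeq gene. Myod1 lies on the plus strand of chr7:46376474-46379092 and Myog on the plus strand of chr1:134290004-134292548 (GRCm38.p6). Myf5, at chr10:107482908-107486927, and Myf6, at chr10:107492848-107494723, lie side by side on the minus strand with 5920 bases between them. Exon lengths were 1861 bases for Myod1, 2083 for Myf5, 1495 for Myog and 1263 for Myf6, so levels of different factors are compared below as CPM per kb of exon. The stretch of 60 coding bases in which the 4 genes are most alike is shown because it displays the shared helix-loop-helix code of the family. Capitals mark bases that are the same in all 4, and each stretch lies in exon 1, with Myod1 at chr7:46377086-46377145, Myf5 at chr10:107485537-107485596, Myog at chr1:134290385-134290444 and Myf6 at chr10:107494280-107494339 (GENCODE sequence, GRCm38).
Myod1: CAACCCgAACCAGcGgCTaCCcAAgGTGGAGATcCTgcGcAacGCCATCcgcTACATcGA
Myf5: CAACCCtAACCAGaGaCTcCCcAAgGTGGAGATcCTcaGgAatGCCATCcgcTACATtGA
Myog: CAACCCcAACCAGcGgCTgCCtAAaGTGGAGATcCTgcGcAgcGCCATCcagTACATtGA
Myf6: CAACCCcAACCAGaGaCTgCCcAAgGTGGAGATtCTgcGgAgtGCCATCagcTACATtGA
In this stretch 44 of the 60 bases were identical in all 4 genes, and Myf5, Myog and Myf6 matched Myod1 at 51, 52 and 50 bases. Over whole transcripts the longest exact run shared by any pair was 26 bases, between Myod1 and Myf5, and the other pairs shared runs of 12 to 21 bases.

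Myog was the factor that rose in both cell types, and bases upstream of it are shown for that reason (RefSeq sequence, GRCm38.p6, plus strand, chr1:134289754-134289988). The 15 bases nearest the RefSeq start belong to the transcript in the GENCODE annotation, and they are not shown and were not searched. Capitals mark an E-box, searched as CANNTG, and an A/T-rich core of the kind bound by MEF2 factors, searched as TANNNNTA with each N an A or T. Both patterns were searched on both strands.
Myog: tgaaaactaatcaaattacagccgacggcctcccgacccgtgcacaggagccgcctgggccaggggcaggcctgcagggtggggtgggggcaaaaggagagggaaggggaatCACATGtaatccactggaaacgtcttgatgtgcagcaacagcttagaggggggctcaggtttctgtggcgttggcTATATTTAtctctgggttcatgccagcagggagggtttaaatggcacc
The E-box begins 138 bases and the A/T-rich core 63 bases before the RefSeq start, and the motifs do not overlap. Among 32851 mouse promoter windows of the same 235 bases, 64.1% held a CANNTG and 8.29% the A/T-rich core.

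In control C2C12 cells Myod1 was the most abundant factor, followed by Myog and Myf5, and Myf6 was almost absent. Myod1 stood at 42.9 ± 11.1 CPM per kb (SD, n = 2), Myog at 14.3 ± 15.3, Myf5 at 9.26 ± 1.75 and Myf6 at 0.0686 ± 0.0559. Myog and Myf5 did not differ beyond their spread, since Myf5 exceeded Myog in replicate 1 (8.02 against 3.47 CPM per kb) and Myog exceeded Myf5 in replicate 2 (25.1 against 10.5). Myf6 had 3 and 1 counts in the control libraries and 1 and 3 counts in the Septin9-deficient ones, and the exact 95% Poisson intervals of these counts reach from 0.0253 to 8.77, counting error alone.

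Control pMb held far more of the differentiation factor. Myog and Myod1 were about level there, at 475 ± 293 and 402 ± 47.3 CPM per kb (SD, n = 2). Their order was not the same in both experiments, with Myog above Myod1 in replicate 1 (682 against 369 CPM per kb) and below it in replicate 2 (268 against 436). Myf5 and Myf6 followed at 19.3 ± 5.19 and 13.3 ± 13.5 CPM per kb, and this pair did not differ beyond its spread either. Myf6 nearly equalled Myf5 in control replicate 1 (22.8 against 23.0 CPM per kb) and had 24.0% of it in replicate 2.

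**Figure D1:**
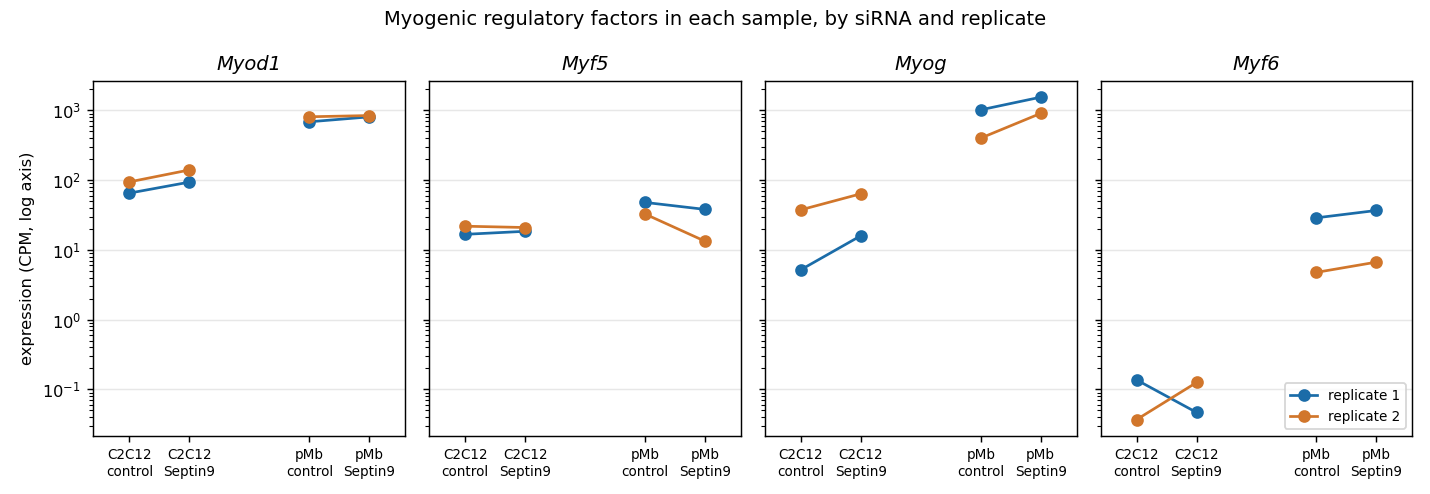
Expression of each factor in CPM (log axis) in C2C12 cells and pMb that received the control or the Septin9 siRNA, with a line joining the samples of one replicate number. Myog rises along all 4 lines, Myf5 falls along both pMb lines, and Myf6 stays under 0.14 CPM in C2C12 cells but reaches 4.76 to 36.8 CPM in pMb.

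Between the control groups, 3 of the 4 factors were higher in pMb than in C2C12 cells at an adjusted p under 0.05 and at least 1.5-fold, against 19.6% of the 17918 genes tested. Myod1 had 65.2 and 94.4 CPM in control C2C12 cells and 687 and 811 CPM in control pMb. The groups did not overlap, and the log2 fold change of Myod1 was 3.23 (SE 0.28, adjusted p = 0.000516, edgeR's quasi-likelihood test). Myog had 5.19 and 37.5 CPM in C2C12 cells and 1019.9 and 401 CPM in pMb, a log2 fold change of 5.05 (SE 1.16, adjusted p = 0.0141, edgeR). For Myf6 the control libraries together held 4 counts in C2C12 cells and 799 in pMb. After scaling this is a ratio of 196, with an exact 95% interval from counting of 76.1 to 720, and its adjusted p was 0.00879 (edgeR). Myf5 had 16.7 and 21.9 CPM in C2C12 cells and 47.9 and 32.6 CPM in pMb, and this difference, 1.06 on the log2 scale (SE 0.46), did not pass (adjusted p = 0.106, edgeR). With the 4 control samples fitted alone it passed (adjusted p = 0.035), as it did without the filter on low counts (0.0453), and with C2C12 control replicate 2 left out the call of Myf6 was lost (adjusted p = 0.0628, edgeR). Kind of cell, medium, hours of differentiation (12 in C2C12 cells and 0 in pMb) and hours after transfection all differed between these groups and cannot be told apart.

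After Septin9 depletion Myog and Myod1 rose in C2C12 cells, and Myf5 did not pass the test. Myog, the differentiation factor, had 5.19 and 37.5 CPM in control replicates 1 and 2 and 15.9 and 63.7 CPM in Septin9-deficient replicates 1 and 2. It was thus higher in both pairs, 3.04-fold and 1.70-fold, although control replicate 2 lay above Septin9-deficient replicate 1 and the groups overlap. The edgeR estimate was a log2 fold change of 1.03 (SE 0.12, adjusted p = 2.28e-05). In these bulk libraries, more cells expressing a factor and more of its mRNA per cell cannot be told apart.

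Myod1, the myoblast factor, had 65.2 and 94.4 CPM in control against 93.7 and 140 CPM in Septin9-deficient C2C12 cells. Its increase was nearly equal in both pairs, 1.44-fold and 1.48-fold, and the log2 fold change of 0.54 (SE 0.07, adjusted p = 4.57e-05, edgeR) fell just short of a 1.5-fold change. Myf5 was at 16.7 and 21.9 CPM in control against 18.5 and 20.9 CPM in Septin9-deficient C2C12 cells. The pairs went in opposite directions, and the log2 fold change was 0.03 (SE 0.09, adjusted p = 0.918, edgeR). Myf6 was below the filter on low counts and was not tested in C2C12 cells. Of the 3 factors tested, 1 was called at an adjusted p under 0.05 and at least 1.5-fold, against 1.57% of all 15814 genes, and 2 passed the adjusted p alone, against 6.75%. Myog and Myod1 were higher in both pairs, as 31.3% of genes were. The call of Myog was lost in DESeq2 with the same block (log2 fold change 1.165, adjusted p = 0.126) and in the fit of all 8 samples (1.077, adjusted p = 0.0526, edgeR). It was kept by DESeq2 on the batch-corrected counts (1.107, adjusted p = 1.1e-08). That fit had no replicate block and does not count the correction already made, so its p can be too small. Each C2C12 pair was also left out of the fit of all 8 samples. The log2 fold change of Myog was then 0.77 without replicate 1 and 1.62 without replicate 2. That of Myod1 was 0.57 and 0.52. With 1 C2C12 pair these fits cannot measure the spread between C2C12 experiments, so no p-value is given for them. Without the replicate block no factor passed in C2C12 cells, as 0 of all 15814 genes did, Septin9 included. The smallest unadjusted p of a factor in that fit was 0.0955 (edgeR).

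Septin9-deficient pMb showed an increase of Myog together with a decrease of Myf5. Myog had 1019.9 and 401 CPM in control against 1549.6 and 908 CPM in Septin9-deficient pMb, so that it was 1.52-fold and 2.26-fold higher within the pairs. Again the groups overlap, because control replicate 1 lay above Septin9-deficient replicate 2. The log2 fold change was 0.89 (SE 0.16, adjusted p = 0.00266, edgeR).

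Myf5, the other factor of dividing myoblasts, had 47.9 and 32.6 CPM in control against 38.1 and 13.3 CPM in Septin9-deficient pMb. It fell to 0.794 of control in pair 1 and to 0.409 in pair 2, with overlapping groups, and the log2 fold change was -0.78 (SE 0.16, adjusted p = 0.00679, edgeR). The size of the decrease rested on replicate 2: without that pair the log2 fold change was -0.34, and without replicate 1 it was -1.29. With RLE size factors or library size alone the adjusted p of Myf5 was 0.0792 and 0.0638 (edgeR).

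Myod1 was at 687 and 811 CPM in control against 808 and 844 CPM in Septin9-deficient pMb, a log2 fold change of 0.15 (SE 0.14, adjusted p = 0.658, edgeR). Myf6 had 28.8 and 4.76 CPM in control against 36.8 and 6.68 CPM in Septin9-deficient pMb. It was higher in both pairs by a similar factor, 1.27 and 1.40, yet its log2 fold change of 0.40 (SE 0.14) did not pass (adjusted p = 0.11, edgeR). Thus 1 of the 4 factors was called higher, against 2.87% of the 17117 genes tested, and 1 was called lower, against 0.298%. Myog, Myod1 and Myf6 were higher in both pairs, as 32.0% of genes were, and Myf5 was lower in both, as 29.4% were. No factor passed in pMb without the replicate block, as 0 of all 17117 genes did, Septin9 included. The smallest unadjusted p of a factor in that fit was 0.213 (edgeR).

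**Figure D2:**
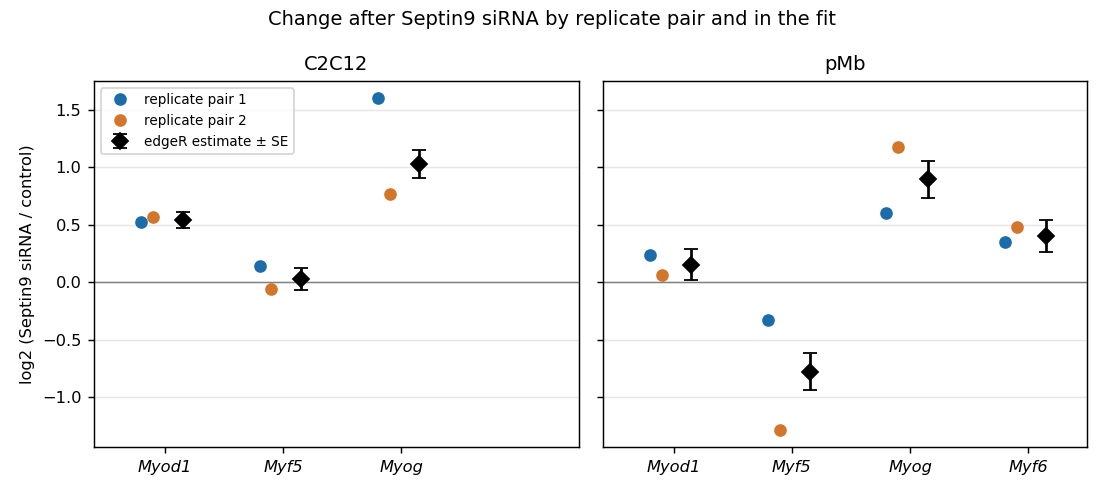
Log2 ratio of Septin9-deficient to control samples in each replicate pair (circles) and the edgeR estimate with its standard error (diamonds), for the factors tested in each cell type (Myf6 was not tested in C2C12 cells). Myog is above 0 in all 4 pairs, Myod1 near 0.54 in both C2C12 pairs, and the Myf5 pairs of pMb lie apart at -0.33 and -1.29.

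In the tables from which the authors had removed the difference between experiments, Myog had 292 and 393 normalised counts in control against 829 and 651 in Septin9-deficient C2C12 cells. In pMb it had 16795 and 13647 against 24445 and 29793 normalised counts, so the groups did not overlap in either cell type. Myod1 in C2C12 cells (1870.2 and 1821 against 2654 and 2727) and Myf5 in pMb (772 and 1049 against 633 and 451) were separated as well. With the difference between experiments removed, groups whose pairs moved the same way tend to separate. The separation is therefore no evidence beyond the direction of the pairs. For Myf6 in pMb these tables held 282 and 267 normalised counts in control against 352 and 369 in Septin9-deficient samples.

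Whether the factors responded differently in the 2 cell types was tested with edgeR's interaction term in a fit of all 8 samples. No factor passed, as none of the 17918 genes did (0.0%), while 1469 genes and 2 of the factors had an unadjusted p under 0.05. The interaction, the log2 fold change in pMb minus that in C2C12 cells, was -0.40 for Myod1 (SE 0.13, unadjusted p = 0.0134) and -0.81 for Myf5 (SE 0.26, unadjusted p = 0.0114), with adjusted p = 0.452 for both in edgeR. For Myog it was -0.19 (SE 0.26, adjusted p = 0.908, edgeR) and for Myf6 0.30 (SE 0.98, adjusted p = 0.991, edgeR). DESeq2 with the same design gave 21 genes past the threshold. Myod1 and Myog did not pass in it (adjusted p = 0.398 and 0.999), and Myf5 and Myf6 received no adjusted p, while 2 factors again had an unadjusted p under 0.05. In edgeR, Myf5 passed without the filter on low counts (adjusted p = 0.000218, with 255 of 28842 genes passing). The interaction of Myf5 was -1.31 without pMb replicate 1 and -0.36 without pMb replicate 2, and that of Myod1 -0.47 and -0.30. With 1 pMb pair these fits cannot measure the spread between pMb experiments, so no p-value is given for them.

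For Myog and Myf5 the estimated difference between the independent experiments was larger than that between the siRNAs, and it had opposite signs in the 2 cell types. In C2C12 cells replicate 2 exceeded replicate 1 for Myog by 2.31 on the log2 scale (SE 0.12, adjusted p = 2.30e-10), for Myod1 by 0.53 (SE 0.07, adjusted p = 5.77e-06) and for Myf5 by 0.26 (SE 0.10, adjusted p = 0.045), all from edgeR. These 3 of 3 passed the adjusted p, as did 35.7% of all genes. In pMb replicate 2 was the lower one, differing from replicate 1 by -2.50 for Myf6 (SE 0.14, adjusted p = 2.08e-10), by -1.035 for Myog (SE 0.16, adjusted p = 7.55e-05) and by -0.98 for Myf5 (SE 0.16, adjusted p = 0.00013), again from edgeR. Myod1 differed by 0.17 (SE 0.14, adjusted p = 0.402, edgeR), so that 3 of 4 passed against 24.5% of genes. The fibroblast gene Pdgfra moved the other way in pMb, higher in replicate 2 by 5.06 on the log2 scale (adjusted p = 5.85e-13, edgeR), and the part of such cells in the lower levels of the factors was not tested.

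Relative to Myod1, Myog was higher and Myf5 was lower after Septin9 depletion in each of the 4 replicate pairs. These ratios are taken within a library and do not depend on how libraries are scaled to each other. In control C2C12 cells Myog amounted to 9.91% and 49.5% of Myod1 per kb in replicates 1 and 2, and in Septin9-deficient cells to 21.2% and 56.6%. The log2 ratio rose by 1.096 in pair 1 and by 0.19 in pair 2. In control pMb Myog was at 1.85 and 0.615 times Myod1, and in Septin9-deficient pMb at 2.39 and 1.34 times, increases of 0.37 and 1.12 in the log2 ratio. In replicate 2 the order of the pair turned, with Myod1 ahead in control and Myog ahead in Septin9-deficient pMb.

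Myf5 amounted to 22.9% and 20.7% of Myod1 per kb in control C2C12 cells and to 17.6% and 13.3% in Septin9-deficient ones. The groups did not overlap, and the log2 ratio changed by -0.38 and -0.63 in pairs 1 and 2. In these C2C12 pairs Myod1 itself changed by 0.52 and 0.57 and Myf5 by 0.14 and -0.06, so the lower ratio reflects mainly the higher Myod1. In pMb the share was smaller throughout, 6.24% and 3.60% in control against 4.21% and 1.41% in Septin9-deficient cells, with changes of -0.57 and -1.35. Here the groups overlap, as Septin9-deficient replicate 1 lay above control replicate 2. In the pMb pairs Myf5 itself changed by -0.33 and -1.29 and Myod1 by 0.24 and 0.06. No test was made of these ratios, since an exact permutation test of 2 against 2 samples cannot give a p below 0.333 and one of 4 pairs cannot go below 0.125.

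**Figure D3:**
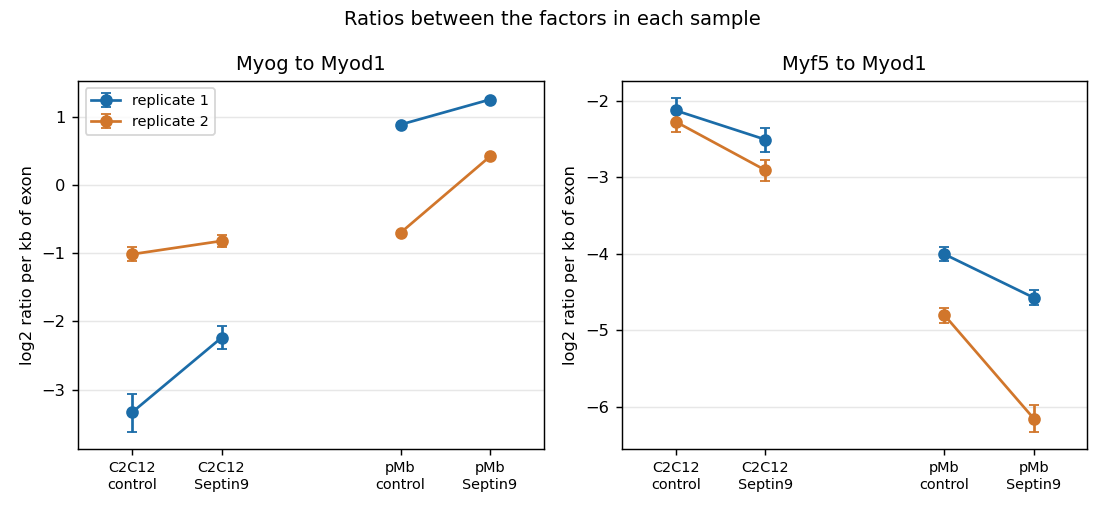
Log2 ratio of Myog to Myod1 and of Myf5 to Myod1, per kb of exon, in each sample, with exact 95% intervals for counting error alone and a line joining the samples of one replicate number. All 4 Myog lines rise by 0.19 to 1.12 and all 4 Myf5 lines fall, by 0.38 to 1.35.

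Myf6 could be set against the other factors only in pMb, where its counts were high enough. It stood at 3.35% and 1.41% of Myog in control against 2.81% and 0.871% in Septin9-deficient pMb. Against Myf5 it moved from 99.2% and 24.0% in control to 159% and 82.8%, so that the log2 ratio of Myf6 to its neighbour Myf5 was higher by 0.68 in pair 1 and 1.78 in pair 2.

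Summed over the 4 factors, the level per kb was 46.6 and 86.4 in control against 69.9 and 128 in Septin9-deficient C2C12 cells. In pMb the sum was 1097 and 723 in control against 1518 and 1072 in Septin9-deficient cells. Myod1 made up 58.7% to 75.1% of this sum in all C2C12 samples and 28.6% to 60.2% in pMb. The share of Myog went from 7.44% to 15.3% in C2C12 pair 1, from 29.1% to 33.3% in C2C12 pair 2, from 62.2% to 68.3% in pMb pair 1 and from 37.1% to 56.6% in pMb pair 2.

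**Figure D4:**
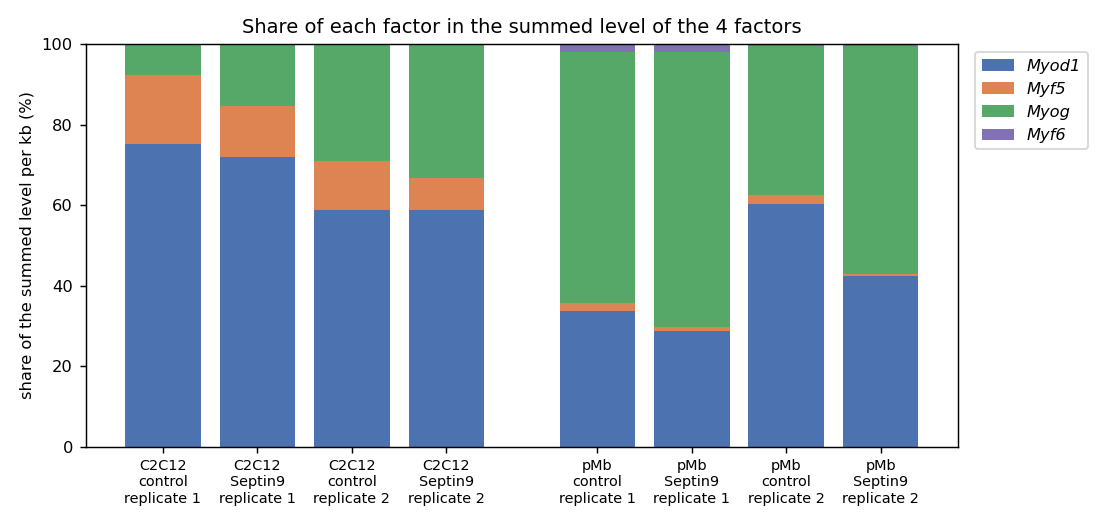
Share of each factor in the summed level of the 4 factors (CPM per kb of exon) in each sample. Myod1 is the largest part in every C2C12 sample, Myog is the largest in all pMb samples but control replicate 2, and the share of Myf5 is smaller in the Septin9-deficient sample of each pair.

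Genes beside the factors were examined next. Ppfia4, a liprin family gene that lies 4234 bases beyond Myog, had 112 and 38.9 CPM in control against 146 and 92.5 CPM in Septin9-deficient pMb (log2 fold change 0.81, SE 0.16, adjusted p = 0.00473, edgeR). In C2C12 cells it was scarce, at 0.637 and 4.23 CPM in control against 1.77 and 5.72 CPM in Septin9-deficient cells, and did not pass (0.71, SE 0.25, adjusted p = 0.104, edgeR). Gm45923, a long noncoding RNA also named Munc or DRReRNA for the distal regulatory region of Myod1 from which it comes, lies 3981 bases before Myod1. It had 125 and 29 counts in control against 165 and 94 counts in Septin9-deficient pMb, a log2 fold change of 1.07 (SE 0.29, adjusted p = 0.0374, edgeR), while no C2C12 library held more than 2 counts. Kcnc1, a potassium channel gene 17126 bases beyond Myod1, had 7.09 and 5.24 CPM in control against 9.22 and 6.01 CPM in Septin9-deficient pMb and did not pass (log2 fold change 0.29, SE 0.18, adjusted p = 0.459, edgeR). It was not tested in C2C12 cells, where no library held more than 10 counts. Lin7a, beside Myf5, and the noncoding RNA Gm36177, beside Myf6, stayed at or below 0.260 and 0.441 CPM and were not tested in either cell type. Myoparr, the noncoding RNA 242 bases before Myog, had 0 counts in each library. The strand setting of the counting is not given in the sources used here.

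The genes most like each factor were sought by Pearson's correlation of log2 CPM over the 8 samples, after centring within each cell type, among 13647 genes with a mean of at least 1 CPM in both cell types. This is a description, as the 8 points share experiments and libraries. For Myog the first was its neighbour Ppfia4 (r = 0.994), followed by LOC115489488 (0.994), Arpp21 (0.989), Pygm, the muscle glycogen phosphorylase (0.988), and Trim72, a membrane repair protein of muscle (0.987). For Myod1 they were Cmtm3 (0.981), Efs (0.965), Mgp, the matrix Gla protein (0.964), Mark2 (0.963) and the homeobox gene Pitx3 (0.961). For Myf5 they were Tgfbrap1 (0.989), Fbxw9 (0.973), Cdk20 (0.965), AI467606 (0.960) and Nkiras1 (0.960). Among the factors themselves r was 0.77 for Myod1 with Myog, 0.23 for Myf5 with Myog and -0.05 for Myf5 with Myod1. Myf6 was too low in C2C12 cells to be included.

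Genes known to act with or upstream of the factors were tested in the same fits, in which 2.64% of all genes passed higher and 4.12% lower in C2C12 cells, and 3.95% higher and 1.04% lower in pMb. Of the 3 E proteins, their dimer partners, Tcf4 rose in C2C12 cells (log2 fold change 0.34, SE 0.07, adjusted p = 0.00424, edgeR) and none passed in pMb. Among 15 inhibitors of the factors, 13 were tested in C2C12 cells and 14 in pMb, with 2 higher in each and none lower. Those that passed were Id2 and Id3, which bind E proteins, in C2C12 cells (0.36 and 0.30), and the Notch target Hey1 and the inhibitor Mdfi in pMb (0.89 and 0.66). Hey1 and Mdfi had log2 fold changes of 0.69 and 0.86 in C2C12 cells without passing (adjusted p = 0.0559 and 0.159, edgeR). Id2 and Id3 were at -0.07 and -0.15 in pMb, also without passing. In pMb the inhibitors Twist1 and Twist2 differed between experiments, higher in replicate 2 by 3.46 and 4.45 on the log2 scale. Among the upstream regulators, Pitx3 rose (0.97) and Eya1 fell (-0.54) in C2C12 cells, and Pax7, the satellite cell factor, fell (-0.44) in pMb. Of 12 coactivators, Smarcd3, a chromatin remodelling subunit that works with Myod1, rose in C2C12 cells (0.31), and Mef2c rose in pMb, from 377 and 128 CPM to 469 and 290 CPM.

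Many genes known as targets of the factors rose, as Myog did. Of 30 such genes, 28 were tested in C2C12 cells and 15 passed higher and none lower, against 2.64% of all genes higher, with a median log2 fold change of 0.46 where the median of all genes was -0.0008. In pMb 19 of 30 passed higher and none lower, against 3.95%, with a median of 0.745 against 0.01. The list was put together with results of these data known and is no independent evidence of its direction. At 1.5-fold or more 7 targets were called higher in C2C12 cells, against 0.828% of genes, and 1 without replicate 1, 4 without replicate 2 and 2 in DESeq2 with the block. On the batch-corrected counts DESeq2, run without a block, called 5. In pMb 17 were called, against 2.87% of genes, and 10 without replicate 2.

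In C2C12 cells the targets with the smallest p were Des, the muscle intermediate filament protein, the fusion proteins Mymk and Mymx, the acetylcholine receptor subunit Chrna1 and the slow troponin Tnni1. Mymk went from 1.82 and 9.27 CPM to 5.13 and 16.2 CPM (log2 fold change 1.02, SE 0.17, adjusted p = 0.000742, edgeR). Mymx went from 1.27 and 4.34 CPM to 2.89 and 9.40 CPM (1.14, SE 0.20, adjusted p = 0.00131, edgeR). The log2 fold change was 0.49 for Des, 0.51 for Chrna1 and 1.12 for Tnni1. Those with the smallest p in pMb were the troponins Tnnc2 and Tnni2, Mymx, the neonatal myosin Myh8 and the cell cycle inhibitor Cdkn1c. Tnnc2 went from 275 and 98.5 CPM to 464 and 232 CPM (0.998, SE 0.14, adjusted p = 0.000347, edgeR), and Cdkn1c from 66.6 and 22.2 CPM to 106 and 79.3 CPM (1.24, SE 0.18, adjusted p = 0.000656, edgeR). Tnni2, Mymx and Myh8 had log2 fold changes of 0.88, 0.81 and 1.39. The targets differed between experiments as Myog did, with a median log2 difference of replicate 2 to replicate 1 of 1.21 in C2C12 cells and -0.96 in pMb, larger than the medians after Septin9 depletion.

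**Figure D5:**
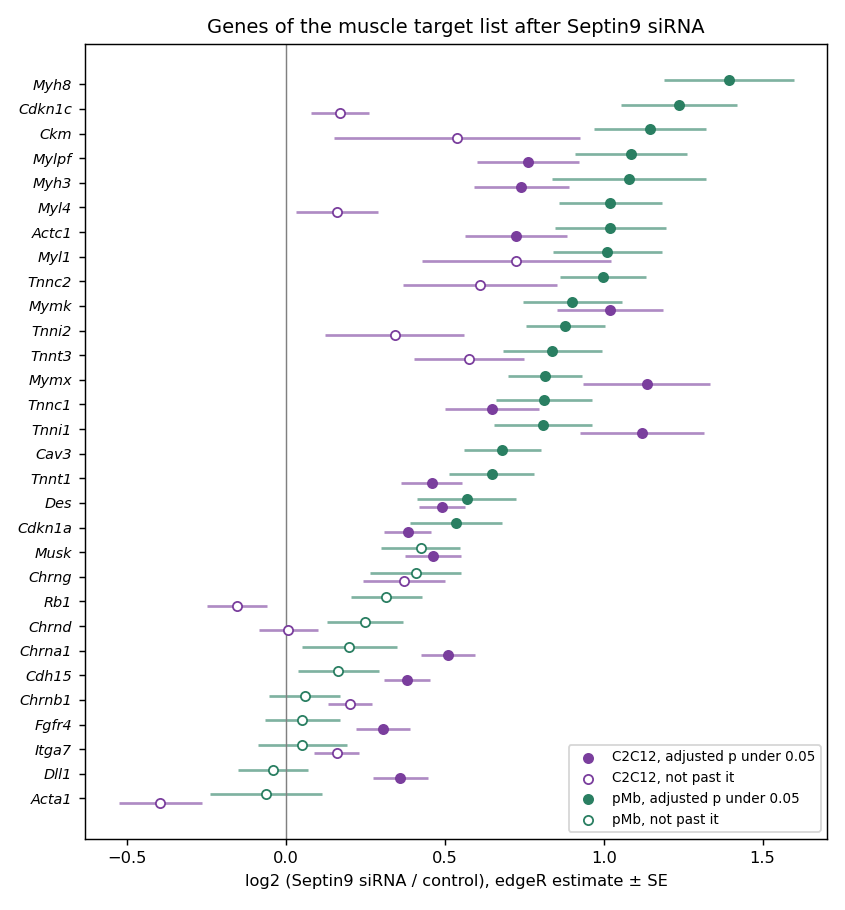
Log2 fold change after Septin9 depletion (edgeR estimate with its standard error) of the 30 target genes in C2C12 cells and pMb, ordered by the value in pMb, with filled circles for an adjusted p under 0.05. The filled circles all lie above 0, 15 in C2C12 cells and 19 in pMb, and Acta1, skeletal muscle actin, is the lowest in both, at -0.40 and -0.06 without passing.

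Of 10 genes of dividing cells, 7 passed the adjusted p lower in C2C12 cells, against 4.12% of all genes, and 3 in pMb, against 1.04%. None passed higher, and none fell by 1.5-fold or more in either cell type. Pcna, Mcm2 and Mcm5 did not pass in C2C12 cells (log2 fold changes 0.037, 0.034 and -0.076). Mki67 had a log2 fold change of -0.50 in C2C12 cells (adjusted p = 0.000167) and of -0.47 in pMb (adjusted p = 0.0564), both from edgeR. Between the C2C12 experiments these genes differed by a median of -1.04 (replicate 2 minus replicate 1), opposite in sign to the difference of Myog.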

How the data were processed

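Polyadenylated RNA was sequenced as paired ends. Per the labels and the processing notes, the authors aligned reads to GRCm38.p6 with STAR 2.7.2 and deposited whole-number counts per gene from featureCounts 2.0.1, without normalization. For each cell type they also deposited a normalised signal, counts corrected by ComBat-Seq for the difference between experiments and divided by DESeq2 1.40.1 size factors, which returned whole reads in 100% of values within a tolerance of 0.01.

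The 16 broken lines of the count matrix were left out, which removed 5 split genes. Each cell type was fitted in R 4.3.3 with edgeR 4.0.16 (TMM, filterByExpr, quasi-likelihood test, replicate number as a block), with Benjamini-Hochberg adjustment over all genes tested. Called genes had an adjusted p under 0.05 and at least a 1.5-fold change (log2 0.585). Standard errors came from the fold change and F statistic. Samples were paired by the replicate numbers of the labels, since the study states independent experiments. Samples of the same number deviated together, with r = 0.678 over 15814 genes in C2C12 cells and 0.82 over 17117 in pMb. The interaction term and the contrast of control groups used all 8 samples. Levels are CPM scaled by TMM over 8 samples, pair ratios are log2 CPM with a prior count of 2, and per-kb values use GENCODE exon lengths. In the siRNA comparisons the block takes out the difference between replicates. Their p-values then rest on how far the 2 replicate pairs disagree and on a variance estimate shared over all genes. With so few samples per fit the shared part weighs heavily, so a small p does not show that the 2 pairs of a gene are alike. P-values between the control groups rest on the spread between replicates, with variance shared over genes in the same way. Intervals cover counting error only. Fits were tested on simulated data. DESeq2 1.42.0 was an alternative, run without a block on the batch-corrected counts.

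The factors and gene lists were chosen with earlier results of these data known. Named are the factors, Septin9, the genes beside them, the 5 most similar genes per factor, members of lists of up to 15 genes, and the 5 target genes with the smallest p per cell type at a mean of at least 1 CPM. A single gene of these lists is not reported here. Other steps were made with Python 3.11.15, pandas 2.3.3, scipy 1.17.1 and matplotlib 3.10.9.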

Additional observations from a re-analysis of the deposited data

How the results depend on the processing

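The 2 replicates of each group limit every call, and counts of 1 to 3 per library leave Myf6 unmeasured in C2C12 cells. Without the replicate block 0 factors and 0 target genes were called in either cell type, and 0 factors had an unadjusted p under 0.05 in that fit (edgeR). That fit passed no gene at all, not even Septin9. Only 372 of 15814 genes in C2C12 cells and 378 of 17117 in pMb had an unadjusted p under 0.05 in it. The number of factors called in C2C12 cells, 1 with the block, was 0 in DESeq2 with the block, 0 in the fit of all 8 samples and 1 in DESeq2 on the batch-corrected counts, and 0 to 1 with a replicate pair left out. In pMb it was 2, became 1 with RLE size factors and 1 with library size alone, and was 1 to 2 with a pair left out. The target genes called higher numbered 7 in C2C12 cells, 2 in DESeq2 with the block, 5 in DESeq2 on the batch-corrected counts, 1 in the fit of all 8 samples and 1 to 4 with a pair left out. In pMb they numbered 17, and 10 to 21 with a pair left out. For the difference between cell types 0 factors were called, 1 without the filter on low counts and 0 to 1 with a pair left out. In the control comparison the number called was 3 and ranged from 2 to 4 over 11 alternatives. Signs turned only where a pair was left out and no test passed: the log2 fold change of Myf5 in C2C12 cells was -0.062 without replicate 1 and 0.143 without replicate 2, the interaction of Myog ranged from -0.727 to 0.176, and that of Myf6 from -1.233 to 1.853. With a pair left out, the remaining pair was assumed to vary like the other cell type. The numbers called in such fits therefore measure no spread between experiments of the cell type with 1 pair. The changes in the ratios of Myog and of Myf5 to Myod1 kept their direction in the batch-corrected values, at 0.574 for Myog and -0.518 for Myf5 in C2C12 cells (0.645 and -0.506 from raw counts) and at 0.686 and -0.9 in pMb (0.744 and -0.961). The longest transcript had the same length as all exons together. Causes were not tested.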
